A study of Mus musculus with 30 samples.

Results

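The genes described here encode the constitutive proteasome, the large protease that degrades ubiquitin-tagged proteins, together with its activators and assembly factors. The 41 listed genes were chosen by gene name and not by measured value, but with earlier results of these data known. Of these, 40 had a named probe set and were measured among 12156 named genes. The expression of Adrm1, a ubiquitin receptor, was not analysed here. The members fell into 4 classes: 14 core genes (Psma and Psmb), 6 base ATPases (Psmc), 14 other 19S genes (Psmd), and 6 measured activators and assembly factors (Psme3, Psme4, Psmf1, Psmg1, Psmg2 and Pomp).

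The core particle is a barrel of stacked rings. Outer alpha rings, made of Psma proteins, gate the entry of substrates, and inner beta rings, made of Psmb proteins, hold the catalytic sites, which belong to Psmb5, Psmb6 and Psmb7. The 19S regulatory particle caps the barrel: its base holds the Psmc ATPases, which unfold substrates, and its lid removes ubiquitin chains. Cells raise proteasome subunit genes together when proteasome activity falls short, chiefly through the transcription factor encoded by Nfe2l1.

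The data were liver expression profiles from male mice aged 6 to 9 months, in 6 groups of 5 individually arrayed animals. Null mice (PPARα-null, 129S4/SvJae-Pparatm1Gonz/J) and WT mice (129S1/SvlmJ) received 0, 3 or 10 mg/kg PFOS as potassium salt by daily gavage for 7 days, and the 0 mg/kg animals of both genotypes received the Tween 20 vehicle. PPARα is a nuclear receptor that controls genes of fatty acid metabolism in hepatocytes, and PFOS, a perfluoroalkyl acid, is an activator of it. The Null allele affects every cell of the animal, and the genotypes came as separate substrains, so that substrain and genotype cannot be told apart. Values were log2 expression values on the scale of Robust Multichip Average (RMA), so that a difference of 1 is a 2-fold difference. A gene was called when its Benjamini-Hochberg adjusted p over all 24069 probe sets kept was under 0.05 in limma.

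Replicates 4 and 5 labelled WT 0 mg/kg did not lie with replicates 1 to 3 of that group. Their mean level over the 3 Ppara probe sets was 8.66 and 8.74, against 10.62, 10.45 and 10.33 in replicates 1 to 3 and 8.78 to 9.81 in all Null arrays. Cyp2b10, a gene induced by xenobiotics, read 13.04 and 12.99 in them, against 8.43, 8.11 and 8.28 in replicates 1 to 3, 12.02 to 13.37 in the Null arrays at 10 mg/kg, and 12.37 to 12.97 in the WT arrays at 10 mg/kg. On both genes these 2 arrays thus went against their label, with Ppara below every Null array and Cyp2b10 at the level of the arrays dosed with 10 mg/kg. They were kept under their label. Most counts that rest on WT 0 mg/kg, and some of the class medians and called genes, are also given from a fit without these 2 arrays and with the same probe sets. Array medians ran over 5.60 to 5.70, and the highest correlation between any pair of arrays was 0.997. The log2 difference between 3′ and 5′ control probe sets, a sign of RNA quality, ran over 0.33 to 0.52 for actin and 0.07 to 0.22 for Gapdh.

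In WT liver, proteasome genes rose at 10 mg/kg. At this dose 19 of 40 members were called higher and 0 lower against 0 mg/kg, where 7.63% of all 12156 genes were called higher. The median log2 difference was 0.30 over the members and -0.0039 over all genes, and 39 of 40 members had a difference above 0. The called genes were 11 of 14 core genes, 1 of 6 base ATPases, 5 of 14 other 19S genes, and 2 of 6 activators and assembly factors. By median difference the other 19S genes (0.30) lay at the level of the core (0.31). The median was 0.19 for the base ATPases, and 0.23 for the activators and assembly factors. In whole liver, more cells of a type and more RNA per cell cannot be told apart.

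Without replicates 4 and 5 of WT 0 mg/kg, and with the same probe sets, 32 of 40 members were called higher and 0 lower at 10 mg/kg, against 13.8% of all genes called higher. The median over the members was then 0.41, and over all genes -0.0013. Those 32 comprised all 14 core genes, 4 of 6 base ATPases, 11 of 14 other 19S genes, and 3 of 6 activators and assembly factors. The class medians were then 0.43 for the core, 0.27 for the base ATPases, 0.46 for the other 19S genes, and 0.30 for the activators and assembly factors. With all arrays but 1, the count of 19 was 7 without WT 0 mg/kg replicate 1, 8 without its replicate 2, 8 without its replicate 3, 10 without WT 10 mg/kg replicate 1, 8 without its replicate 2 and 9 without its replicate 5. Over those same settings 6.53% to 7.58% of all genes were called, against 13.5% with every array.

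The classes were also read array by array, as the mean deviation of the class's genes from their own means over the 30 arrays. For the core this mean was -0.33, -0.14, -0.20, 0.09 and 0.10 in the WT arrays at 0 mg/kg, 0.10, -0.08, 0.07, 0.12 and 0.15 at 3 mg/kg, and 0.18, 0.36, 0.27, 0.18 and 0.27 at 10 mg/kg. Each WT array at 10 mg/kg thus lay above each WT array at 0 mg/kg, and replicates 4 and 5 were the highest of the controls. For the base ATPases the same mean was -0.43, -0.20, -0.21, 0.03 and 0.01 at 0 mg/kg, 0.07, -1.3e-05, -0.05, 0.08 and -0.01 at 3 mg/kg, and -0.001, 0.20, 0.13, 0.03 and 0.13 at 10 mg/kg. Here the 10 and 0 mg/kg arrays overlapped, through replicates 1 and 4 at 10 mg/kg and replicates 4 and 5 at 0 mg/kg.

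**Figure D1:**
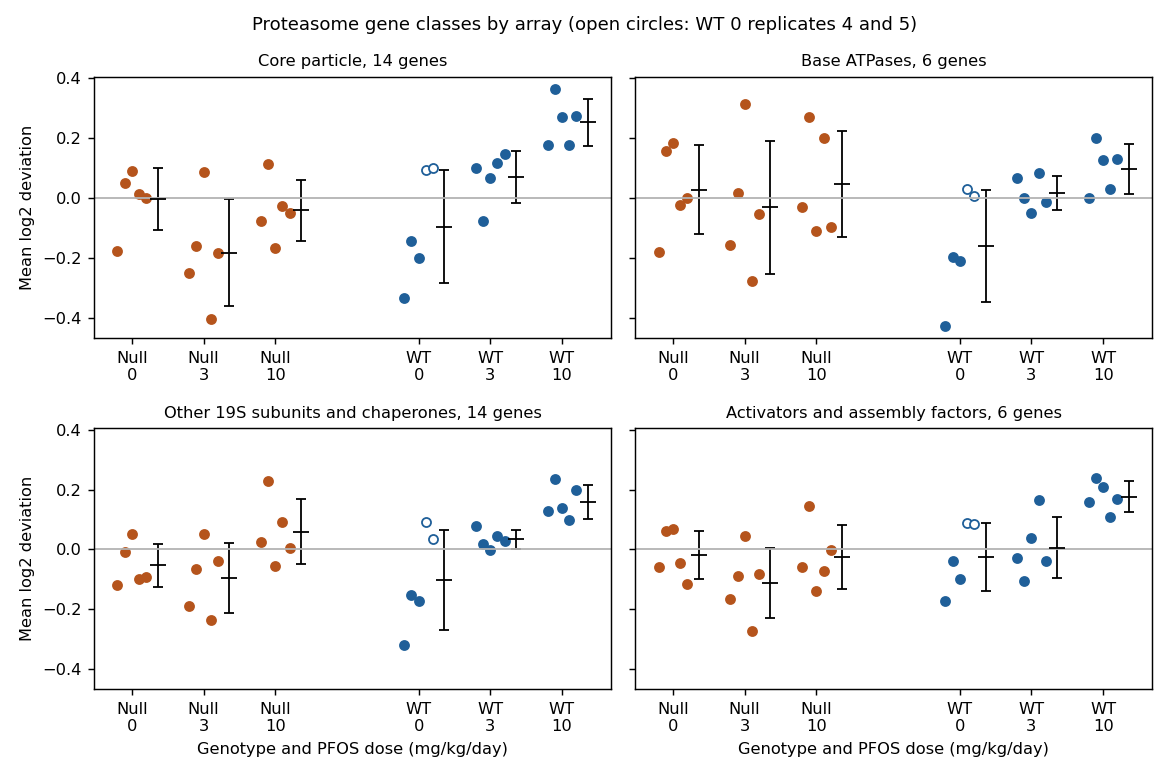
Mean log2 deviation of each class's genes from their own means over 30 arrays (y axis) by genotype and dose (x axis). Points are arrays, open circles are WT 0 mg/kg replicates 4 and 5, and bars are the group mean ± SD (n = 5). In Null mice the core mean at 10 mg/kg was -0.04 ± 0.10, against -0.0041 ± 0.10 at 0 mg/kg. In WT mice it was 0.25 ± 0.08 at 10 mg/kg, against -0.10 ± 0.19 at 0 mg/kg.

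To show what lies at the start of the genes that moved together, the promoter window of the member with the smallest p in WT 10 against 0 mg/kg is printed for the core (Psmb3), the base ATPases (Psmc4) and the other 19S genes (Psmd4). Each runs 5′ to 3′ on the gene's strand and covers 250 bases before and 50 bases after the RefSeq start in GRCm38.p6. Capitals mark matches, on either strand, to any of 4 motifs: TGANNNNGC (the antioxidant response element, read by NFE2-family factors with small Maf proteins), CCAAT (read by NF-Y), CCGGAAGT (an ETS-type motif) and the direct repeat of AGGTCA with 1 base between its copies (the kind PPARα reads with RXR).
Psmb3, chr11:97703184-97703483, plus strand: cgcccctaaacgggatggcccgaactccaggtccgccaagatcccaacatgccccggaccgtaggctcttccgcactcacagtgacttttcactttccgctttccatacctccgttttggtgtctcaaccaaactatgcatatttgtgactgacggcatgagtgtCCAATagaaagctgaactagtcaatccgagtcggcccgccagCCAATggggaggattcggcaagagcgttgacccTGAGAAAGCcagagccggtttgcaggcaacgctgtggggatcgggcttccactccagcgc
Psmc4, chr7:28050043-28050342, minus strand: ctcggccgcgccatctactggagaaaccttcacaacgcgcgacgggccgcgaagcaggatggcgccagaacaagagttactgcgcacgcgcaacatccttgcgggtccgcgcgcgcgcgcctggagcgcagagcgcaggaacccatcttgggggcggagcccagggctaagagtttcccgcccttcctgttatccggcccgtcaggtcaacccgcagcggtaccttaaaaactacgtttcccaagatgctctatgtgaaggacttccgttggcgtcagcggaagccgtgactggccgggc
Psmd4, chr3:95042565-95042864, minus strand: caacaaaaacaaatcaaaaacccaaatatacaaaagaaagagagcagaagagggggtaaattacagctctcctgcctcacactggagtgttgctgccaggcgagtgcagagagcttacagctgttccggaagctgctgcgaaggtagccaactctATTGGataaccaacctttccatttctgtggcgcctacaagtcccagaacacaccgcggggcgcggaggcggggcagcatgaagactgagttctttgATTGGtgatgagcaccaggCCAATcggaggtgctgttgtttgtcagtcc
The Psmb3 window held 2 CCAAT matches and 1 TGANNNNGC match, TGAGAAAGC, beginning 10 bases before the start. The Psmd4 window held 3 CCAAT matches, 2 of them read on the opposite strand as ATTGG, and the Psmc4 window held a match to none of the 4 motifs. No matches overlapped in these windows.

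Of the 41 listed genes, 34 had a window in the RefSeq table, which covered 27025 genes. TGANNNNGC was found in 19 of the 34 (55.9%), against 45.0% of all genes, and among the core genes in 8 of 11. CCAAT was found in 13 of 34 (38.2%), against 41.1% of all genes. CCGGAAGT was found in 9 of 34 (26.5%), against 4.31% of all genes: Psma6, Psmc1, Psmc2, Psmd6, Psmd12, Psmd13, Psme3, Psme4 and Pomp. The direct repeat was found in 0 of 34, against 0.0481% of all genes. The member windows were richer in G and C, with a median of 59% against 52.7% in all windows, and a match is a match of letters only.

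Among the core genes, Psmb3, a structural subunit of the beta ring, had the smallest p in WT 10 against 0 mg/kg. In WT mice it read 10.30, 10.54, 10.33, 10.55 and 10.65 at 0 mg/kg, 10.82, 10.49, 10.80, 10.85 and 10.77 at 3 mg/kg, and 10.88, 11.09, 10.79, 10.83 and 11.02 at 10 mg/kg. All 5 arrays at 10 mg/kg lay above all 5 at 0 mg/kg, and the difference was 0.45 ± 0.09 (SE), a 1.36-fold rise (limma adjusted p = 0.00663, n = 5 per group). Psmb4, another structural beta subunit, came second. In WT mice it read 9.68, 10.01, 9.98, 10.19 and 10.57 at 0 mg/kg, 10.44, 10.37, 10.47, 10.54 and 10.33 at 3 mg/kg, and 10.56, 10.85, 11.02, 10.55 and 10.61 at 10 mg/kg. Only replicate 5 at 0 mg/kg reached into the 10 mg/kg range, and the difference was 0.63 ± 0.13 (adjusted p = 0.00915), or 0.37 (adjusted p = 0.0157) with its brighter probe set. The difference was 0.53 ± 0.10 for Psmb3 (adjusted p = 0.00198) and 0.83 ± 0.11 for Psmb4 (adjusted p = 0.00025) without replicates 4 and 5 at 0 mg/kg.

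Psmb7, which carries a catalytic site, moved less but with little spread. In WT mice it read 12.18, 12.28, 12.16, 12.35 and 12.39 at 0 mg/kg, 12.38, 12.27, 12.38, 12.42 and 12.38 at 3 mg/kg, and 12.45, 12.55, 12.48, 12.43 and 12.48 at 10 mg/kg. The groups at 10 and 0 mg/kg did not overlap, and the difference was 0.21 ± 0.06 (adjusted p = 0.0391). The other catalytic subunits, Psmb5 and Psmb6, were 0.31 ± 0.08 (adjusted p = 0.0289) and 0.31 ± 0.09 (adjusted p = 0.0359) higher. Psma3, an alpha-ring subunit, had the largest p of the core and read 11.34, 11.48, 11.38, 11.66 and 11.69 at 0 mg/kg, 11.66, 11.56, 11.70, 11.69 and 11.77 at 3 mg/kg, and 11.47, 11.78, 11.83, 11.71 and 11.72 at 10 mg/kg. Its difference was 0.19 with a 95% interval of 0.02 to 0.37 (adjusted p = 0.144), and its groups overlapped. Psma3 was called without the 2 unusual arrays, with 0.30 ± 0.08 (adjusted p = 0.0178), and Psmb7, Psmb5 and Psmb6 were then higher by 0.27, 0.44 and 0.43.

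The 14 core differences ran between 0.19 (Psma3) and 0.63 (Psmb4), with medians of 0.31 in the alpha ring and 0.31 in the beta ring. The core genes not called were Psma3, Psma4 (0.25, adjusted p = 0.0504) and Psmb1 (0.19, adjusted p = 0.134). Over all members, 11 of 40 genes had every WT array at 10 mg/kg above every WT array at 0 mg/kg, and 8 of these were core genes. Among all genes 5.97% did so. With the 2 unusual arrays left out, 32 of 40 members did so, 13 of 14 core genes and 11 of 14 other 19S genes among them, against 16% of all genes.

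The base ATPases moved less as a class, with a median difference of 0.19. Psmc4 had the largest difference of any member. In WT mice its representative probe set read 7.17, 7.36, 7.60, 7.97 and 8.09 at 0 mg/kg, 7.86, 7.85, 7.89, 8.29 and 7.79 at 3 mg/kg, and 8.19, 8.71, 8.60, 8.06 and 8.28 at 10 mg/kg. The 10 and 0 mg/kg groups overlapped only through replicate 5 at 0 mg/kg, and the difference was 0.73 ± 0.17 (adjusted p = 0.0156). That probe set was dim, with a mean of 8.05 over the 30 arrays, and the brighter one, with a mean of 10.55, gave 0.50 (adjusted p = 0.0254). Its representative probe set gave 0.99 ± 0.15 (adjusted p = 0.00064) without the 2 unusual arrays.

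Psmc3, the ATPase with the next smallest p, read 10.55, 10.80, 10.75, 11.13 and 11.02 at 0 mg/kg, 10.99, 10.94, 10.91, 11.02 and 11.08 at 3 mg/kg, and 11.09, 11.27, 11.05, 11.06 and 11.19 at 10 mg/kg in WT mice. Replicates 4 and 5 at 0 mg/kg again reached the range of the treated arrays or came near it, and the difference of 0.28 ± 0.09 was not called (adjusted p = 0.0605). Without those arrays it was 0.43 ± 0.08 (adjusted p = 0.00179). Psmc6 was the only member whose WT difference at 10 mg/kg was below 0, and it read 10.40, 10.68, 10.64, 10.85 and 10.71 at 0 mg/kg, 10.80, 10.84, 10.68, 10.82 and 10.78 at 3 mg/kg, and 10.47, 10.34, 10.82, 10.77 and 10.72 at 10 mg/kg in WT mice. Its difference was -0.03, with a 95% interval of -0.23 to 0.18. It was 0.05 without the 2 unusual arrays, and Psmd13 was then the member below 0 (-0.12, adjusted p = 0.456).

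Of the other 19S genes, the called ones were Psmd2 and Psmd3 (scaffold and lid subunits), Psmd4 (a ubiquitin receptor), Psmd5 (an assembly chaperone of the base, absent from the finished particle) and Psmd8 (lid). Psmd4 had the smallest p of all members. In WT mice it read 11.17, 11.33, 11.24, 11.71 and 11.59 at 0 mg/kg, 11.72, 11.72, 11.59, 11.59 and 11.65 at 3 mg/kg, and 11.89, 11.98, 11.76, 11.82 and 11.94 at 10 mg/kg. The arrays at 3 mg/kg lay at the level of replicates 4 and 5 at 0 mg/kg. The 10 and 0 mg/kg arrays did not overlap, and the difference at 10 mg/kg was 0.47 ± 0.09, a 1.38-fold rise (adjusted p = 0.00603), or 0.63 ± 0.07 without replicates 4 and 5 (adjusted p = 6.6e-05).

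Psmd5 read 9.22, 9.31, 9.16, 9.65 and 9.68 at 0 mg/kg, 9.44, 9.61, 9.51, 9.53 and 9.32 at 3 mg/kg, and 9.75, 9.94, 9.74, 9.81 and 9.85 at 10 mg/kg in WT mice. Its arrays at 10 mg/kg lay above every array at 0 and at 3 mg/kg, and it rose by 0.42 ± 0.10 against 0 mg/kg (adjusted p = 0.0182), or by 0.59 ± 0.08 without the 2 unusual arrays (adjusted p = 0.00019). Psmd9, another chaperone of base assembly, had the largest p of the class and read 9.52, 9.40, 9.27, 9.43 and 9.55 at 0 mg/kg, 9.64, 9.93, 9.55, 9.46 and 9.30 at 3 mg/kg, and 9.42, 9.62, 9.39, 9.29 and 9.51 at 10 mg/kg. Its difference at 10 mg/kg was 0.01, with a 95% interval of -0.20 to 0.23.

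Of the activators and assembly factors, Psmf1 and Psme3 were called. Psmf1, known as an inhibitor of the core particle in vitro, read 9.40, 9.38, 9.34, 9.50 and 9.49 at 0 mg/kg, 9.45, 9.39, 9.47, 9.66 and 9.43 at 3 mg/kg, and 9.83, 9.80, 9.75, 9.65 and 9.66 at 10 mg/kg in WT mice. Every array at 10 mg/kg exceeded every array at 0 mg/kg, with a difference of 0.32 ± 0.06 (adjusted p = 0.00757). Psme3, an activator found mainly in the nucleus, read 7.63, 7.71, 7.62, 7.92 and 8.03 at 0 mg/kg, 7.89, 7.87, 7.83, 8.01 and 7.73 at 3 mg/kg, and 8.09, 8.30, 8.01, 8.03 and 8.15 at 10 mg/kg. Its 10 and 0 mg/kg groups overlapped through replicate 5 at 0 mg/kg, with a difference of 0.33 ± 0.09 (adjusted p = 0.0266). Psme4, another activator, had the largest p of the class and read 10.12, 10.37, 10.23, 10.37 and 10.15 at 0 mg/kg, 10.34, 10.50, 10.38, 10.40 and 10.39 at 3 mg/kg, and 10.21, 10.03, 10.46, 10.32 and 10.29 at 10 mg/kg, a difference of 0.01 with an interval of -0.15 to 0.18. The differences were 0.36 for Psmf1, 0.46 for Psme3 and 0.02 for Psme4 without the 2 unusual arrays.

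**Figure D2:**
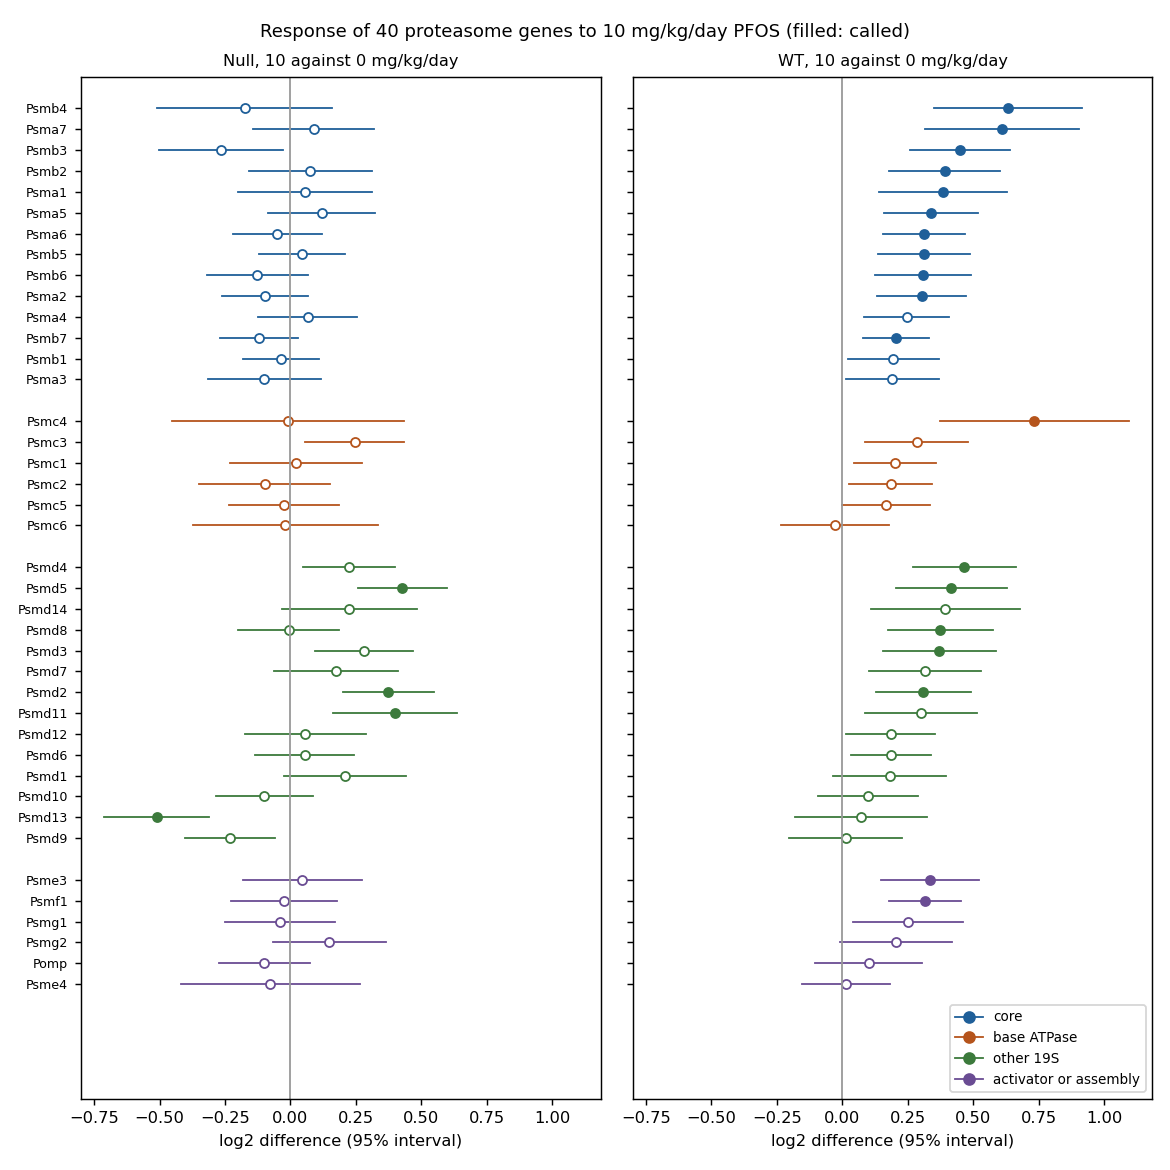
Log2 difference of each of 40 genes between 10 and 0 mg/kg (x axis, point and 95% interval) in Null mice (left) and WT mice (right), grouped by class and ordered by the WT difference. Filled points were called; in Null mice 3 genes were called higher and 1 lower, and in WT mice 19 were called higher.

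At 3 mg/kg the WT response was smaller. No member was called in limma against 0 mg/kg, where 0.247% of all genes were called. Of the 40 members, 37 had a difference above 0, the median was 0.13, and 8 had an unadjusted p under 0.05. The methods' t-test called 0 members too, both at its own limit and after Benjamini-Hochberg adjustment. Without replicates 4 and 5 of WT 0 mg/kg the calls were 6 higher and 0 lower (Psma1, Psma7, Psmb4, Psmd3, Psmd4 and Psmd7), against 0.683% of all genes called higher. The members' median was then 0.23, and it was 0.07 without WT 0 mg/kg replicate 1.

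Set against 3 mg/kg, where the WT control arrays enter the estimate of the spread but not the difference, 10 mg/kg raised 2 of 40 members, Psmd8 by 0.34 ± 0.09 (adjusted p = 0.0491) and Psmf1 by 0.25 ± 0.06 (adjusted p = 0.0362). The share of all genes called higher in this comparison was 3.65%. The members' median was 0.15, and 35 of 40 had a difference above 0. For 10 of the 40, among them Psma2, Psmb2, Psmb4, Psmb5 and Psmb7 of the core, every array at 10 mg/kg lay above every array at 3 mg/kg, as did 6.57% of all genes. The count of calls was 0 without WT 3 mg/kg replicate 1, 2, 3 or 5, or without WT 10 mg/kg replicate 1, 2 or 5. It was 1 without WT 0 mg/kg replicate 2, WT 3 mg/kg replicate 4 or WT 10 mg/kg replicate 4, 4 without WT 0 mg/kg replicate 4, and 5 without WT 10 mg/kg replicate 3. Of all genes, 1.82% to 3.28% were called in either direction where the count was 0, and 4.2% to 6.74% where it was 1. The share was 7.37% for the count of 4 and 12.1% for the count of 5, against 6.58% with every array. The fit without replicates 4 and 5 of WT 0 mg/kg, with the same probe sets, called 11 members higher, 3 of them core genes, against 7.15% of all genes.

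In Null liver at 10 mg/kg, 3 of 40 members were called higher (Psmd2, Psmd5 and Psmd11) and 1 lower (Psmd13), where 4.15% of all genes were called higher and 5.08% lower. The median over the members was 0.01, with 20 genes above 0 and 20 below. By class the median was -0.04 for the core, -0.01 for the base ATPases, 0.19 for the other 19S genes, and -0.03 for the activators and assembly factors. For Psmd2 and Psmd5 every array at 10 mg/kg lay above every array at 0 mg/kg, and for Psmd13 below, against 4.06% of all genes entirely above and 5.15% entirely below. The 4 called genes were 10% of the members, beside 9.23% of all genes called. All 4 belonged to the other 19S class, and 0 of 14 core genes were called. With their brightest probe sets Psmd11 and Psmd13 were not called. The other 19S median of 0.19 was 0.06 with only the groups compared in the fit and probe sets chosen anew.

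Psmb3 read 10.49, 10.59, 10.82, 10.67 and 10.55 at 0 mg/kg, 9.99, 10.14, 10.57, 9.93 and 10.20 at 3 mg/kg, and 10.32, 10.61, 10.26, 10.28 and 10.32 at 10 mg/kg in Null mice. At 10 mg/kg 4 of its 5 arrays lay below every array at 0 mg/kg, and the difference of -0.27 ± 0.11 was not called (adjusted p = 0.167). Psmb7 read 12.20, 12.31, 12.42, 12.36 and 12.35 at 0 mg/kg, 12.08, 12.09, 12.28, 11.97 and 12.09 at 3 mg/kg, and 12.11, 12.33, 12.16, 12.22 and 12.23 at 10 mg/kg, and its difference at 10 mg/kg was -0.12 ± 0.07 (adjusted p = 0.334). Psmb4 read 10.26, 10.93, 10.71, 10.59 and 10.62 at 0 mg/kg, 10.59, 10.74, 11.07, 10.05 and 10.44 at 3 mg/kg, and 10.44, 10.49, 10.33, 10.68 and 10.30 at 10 mg/kg, with a difference at 10 mg/kg of -0.18 ± 0.16 (adjusted p = 0.556), or 0.12 with its brighter probe set (adjusted p = 0.434). Psma3 read 11.35, 11.72, 11.66, 11.65 and 11.65 at 0 mg/kg, 11.43, 11.54, 11.71, 11.16 and 11.49 at 3 mg/kg, and 11.30, 11.63, 11.48, 11.49 and 11.63 at 10 mg/kg. For these 4 core genes, the 10 and 0 mg/kg ranges overlapped in Null mice.

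Among the base ATPases of Null mice, Psmc4 read 7.74, 8.52, 8.30, 7.91 and 7.85 at 0 mg/kg, 8.02, 8.40, 8.85, 7.86 and 8.03 at 3 mg/kg, and 8.28, 8.38, 7.71, 8.33 and 7.57 at 10 mg/kg. Psmc3 read 10.71, 10.89, 11.08, 10.85 and 10.89 at 0 mg/kg, 10.72, 10.86, 11.11, 10.73 and 10.98 at 3 mg/kg, and 11.14, 11.24, 10.98, 11.20 and 11.07 at 10 mg/kg, a difference at 10 mg/kg of 0.25 ± 0.09 that was not called (adjusted p = 0.109). Psmc6 read 10.57, 10.82, 10.74, 10.78 and 10.85 at 0 mg/kg, 10.63, 10.82, 10.97, 10.46 and 10.74 at 3 mg/kg, and 9.95, 11.00, 10.85, 11.08 and 10.78 at 10 mg/kg. For these 3 ATPases the 10 and 0 mg/kg ranges overlapped, and replicate 1 at 10 mg/kg was the lowest of the 30 arrays for Psmc6.

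The same replicate was the lowest of all for Psme4, which read 10.26, 10.38, 10.43, 10.41 and 10.31 at 0 mg/kg, 10.43, 10.49, 10.55, 10.45 and 10.49 at 3 mg/kg, and 9.43, 10.53, 10.48, 10.57 and 10.40 at 10 mg/kg in Null mice. Psmf1 read 9.37, 9.41, 9.46, 9.32 and 9.28 at 0 mg/kg, 9.35, 9.32, 9.33, 9.06 and 9.44 at 3 mg/kg, and 9.65, 9.42, 9.23, 9.11 and 9.30 at 10 mg/kg, a difference at 10 mg/kg of -0.02 ± 0.095 (adjusted p = 0.911). Psme3 ran over 7.66 to 8.02 with a median of 7.93 at 0 mg/kg, and read 7.58, 7.69, 7.91, 7.61 and 7.77 at 3 mg/kg, and 8.07, 8.16, 7.63, 7.85 and 7.82 at 10 mg/kg, a difference of 0.04 ± 0.11 (adjusted p = 0.851). The 10 and 0 mg/kg ranges of these 3 genes overlapped in Null mice.

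Psmd5 rose in both genotypes. In Null mice it read 9.36, 9.41, 9.33, 9.31 and 9.32 at 0 mg/kg, 9.48, 9.60, 9.56, 9.37 and 9.59 at 3 mg/kg, and 9.72, 10.01, 9.54, 9.83 and 9.76 at 10 mg/kg. The 10 and 0 mg/kg arrays did not overlap, and the difference was 0.43 ± 0.08 (adjusted p = 0.00599), beside 0.42 in WT mice. Psmd2, a scaffold of the base, was likewise called in both, with 0.37 ± 0.08 in Null mice (adjusted p = 0.0131) and 0.31 ± 0.09 in WT mice (adjusted p = 0.0322). The genotypes' differences for Psmd5 differed by 0.01, with a 95% interval of -0.25 to 0.27, or by -0.17 (Null minus WT, adjusted p = 0.437) without the 2 unusual arrays. Psmd4 read 11.43, 11.38, 11.49, 11.35 and 11.37 at 0 mg/kg, 11.20, 11.27, 11.49, 11.14 and 11.42 at 3 mg/kg, and 11.73, 11.79, 11.44, 11.63 and 11.55 at 10 mg/kg in Null mice, 0.22 ± 0.08 higher at 10 than at 0 mg/kg but not called (adjusted p = 0.115).

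The calls of Psmd11 and Psmd13, both lid subunits, rested on dim probe sets, with means of 6.69 and 6.53 over the 30 arrays where the median of all values was 5.65. For Psmd13 that probe set read 6.47, 6.34, 6.25, 6.03 and 6.07 at 10 mg/kg and 6.69, 6.65, 6.81, 6.85 and 6.71 at 0 mg/kg in Null mice, a fall of 0.51 ± 0.09 with no overlap (adjusted p = 0.00562). Its brightest probe set (mean 9.28) read 9.40, 9.54, 9.29, 9.50 and 9.27 at 10 mg/kg and 9.15, 9.16, 9.38, 9.18 and 9.24 at 0 mg/kg, a difference of 0.18 in the opposite direction that was not called (adjusted p = 0.165). The same probe set was 0.33 higher at 10 mg/kg in WT mice (adjusted p = 0.0487). For Psmd11 the dim probe set gave 0.40 ± 0.11 in Null mice (adjusted p = 0.0408), and the brightest gave 0.11 (adjusted p = 0.429).

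**Figure D3:**
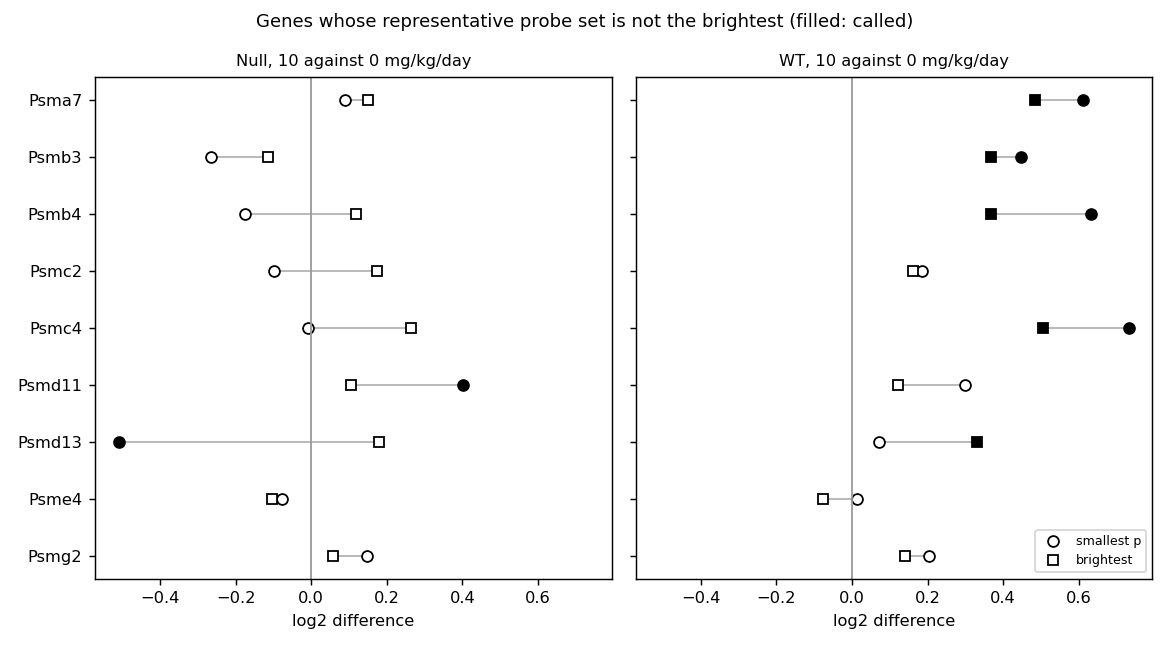
Log2 difference between 10 and 0 mg/kg (x axis) in Null mice (left) and WT mice (right) for the 9 genes whose representative probe set (circles; smallest p in any dose contrast against 0 mg/kg) was not the brightest (squares). Filled symbols were called. In WT mice Psma7, Psmb3, Psmb4 and Psmc4 were called with both, and in Null mice the call of Psmd13 had the opposite sign in its brightest probe set, as had the uncalled values of Psmb4, Psmc2 and Psmc4.

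At 3 mg/kg in Null mice, 3 of 40 members were called lower and 0 higher (Psmb3, Psmd9 and Psmd13), where 3.20% of all genes were called lower. The core median was -0.19, 13 of 14 core genes were below 0, and the median over all members was -0.09. Psmb3 fell by 0.46 ± 0.11 (adjusted p = 0.0329) and was thereby the only member called in opposite directions in the 2 genotypes, since it rose in WT mice at 10 mg/kg. With its brighter probe set the Null difference at 3 mg/kg was -0.31 (adjusted p = 0.0964). The Psmd13 call again rested on its dim probe set, and its brightest gave -0.03 at 3 mg/kg (adjusted p = 0.893). Psmd9 read 9.79, 9.72, 9.65, 9.89 and 9.74 at 0 mg/kg, 9.33, 9.46, 9.39, 9.26 and 9.49 at 3 mg/kg, and 9.75, 9.53, 9.60, 9.44 and 9.32 at 10 mg/kg in Null mice, a fall of 0.37 ± 0.08 at 3 mg/kg with no overlap (adjusted p = 0.0208). For Psmb1, Psmd9 and Psmd13 every array at 3 mg/kg lay below every array at 0 mg/kg, as did 5.35% of all genes. The count of 3 was 1 without Null 0 mg/kg replicate 4 or Null 3 mg/kg replicate 1, 5 without Null 10 mg/kg replicate 1, and 6 without Null 3 mg/kg replicate 3. In that order, 2.21%, 2.73%, 8.9% and 5.82% of all genes were called in either direction, against 5.25% with every array.

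Between 10 and 3 mg/kg in Null mice, limma called 0 of 40 members and 0% of all genes. Of the members, 34 had a difference above 0, with a median of 0.16, and 12 had an unadjusted p under 0.05. The methods' t-test called 1 member at its own limit and 0 after adjustment. Null 3 mg/kg arrays 1 and 4 were the low ones, with 2 of 40 members above their own mean in each, and replicate 3 was the high one, with 28 of 40.

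The response to PFOS differed between the genotypes for 5 of 40 members at 10 mg/kg, each with the lower value in Null mice. Of all genes 2.95% were called in that direction. The 5 members were Psma2 (-0.40 ± 0.11, Null response minus WT response, adjusted p = 0.0402), Psmb3 (-0.71 ± 0.15, adjusted p = 0.00784), Psmb4 (-0.81 ± 0.21, adjusted p = 0.0371), Psmb7 (-0.33 ± 0.085, adjusted p = 0.0337) and Psmd13 (-0.58 ± 0.15, adjusted p = 0.0369). Psmd13 fell in Null mice, while in WT mice it averaged 6.64 at 10 mg/kg and 6.57 at 0 mg/kg and was not called. All 14 core genes had a negative value in this comparison, with a median of -0.33, against a median of -0.19 for the base ATPases, -0.14 for the other 19S genes, and 0.01 for all genes. With the brightest probe sets Psmb3 was still called (-0.48, adjusted p = 0.0392), and Psmb4 (-0.25, adjusted p = 0.288) and Psmd13 (-0.15, adjusted p = 0.601) were not.

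The count of 5 was 1 without Null 0 mg/kg replicate 2, 3 or 4, Null 10 mg/kg replicate 3, WT 0 mg/kg replicate 1 or WT 10 mg/kg replicate 2. It was 2 without Null 0 mg/kg replicate 5, Null 10 mg/kg replicate 4 or 5, or WT 0 mg/kg replicate 3, and 3 without WT 0 mg/kg replicate 2 or WT 10 mg/kg replicate 5. Over these settings 1.77% to 3.68% of all genes were called in either direction, against 3.64% with every array. Without replicates 4 and 5 of WT 0 mg/kg the count was 11, of which 8 were core genes, against 3.62% of all genes. Psmd13 was then no longer called (-0.39 ± 0.14, adjusted p = 0.113). The class medians were then -0.46 for the core, -0.27 for the base ATPases and -0.26 for the other 19S genes.

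At 3 mg/kg the response differed for 1 of 40 members, Psmb3 (-0.73 ± 0.15, adjusted p = 0.0202), where 0.971% of all genes were called lower in Null mice. With the brighter probe set this was -0.47 (adjusted p = 0.0744). Psmd9 had the next smallest p (-0.51 ± 0.13, adjusted p = 0.0529). The median over the core was -0.32, with all 14 genes below 0. The count of 1 was 0 without Null 0 mg/kg replicate 4 or WT 3 mg/kg replicate 3, 2 without Null 10 mg/kg replicate 5, WT 0 mg/kg replicate 2 or 3, or WT 3 mg/kg replicate 5, 3 without Null 0 mg/kg replicate 1, 4 without Null 10 mg/kg replicate 1, 6 without Null 3 mg/kg replicate 3, and 7 without WT 3 mg/kg replicate 2. Of all genes, 0.165% and 0.173% were called in either direction where the count was 0, and 0.568% to 2.53% where it was 2. The share was 1.83% for the count of 3, 2.06% for 4, 2.55% for 6 and 3.48% for 7, against 1.19% with every array. Without replicates 4 and 5 of WT 0 mg/kg the count was 2, against 0.173% of all genes called lower.

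**Figure D4:**
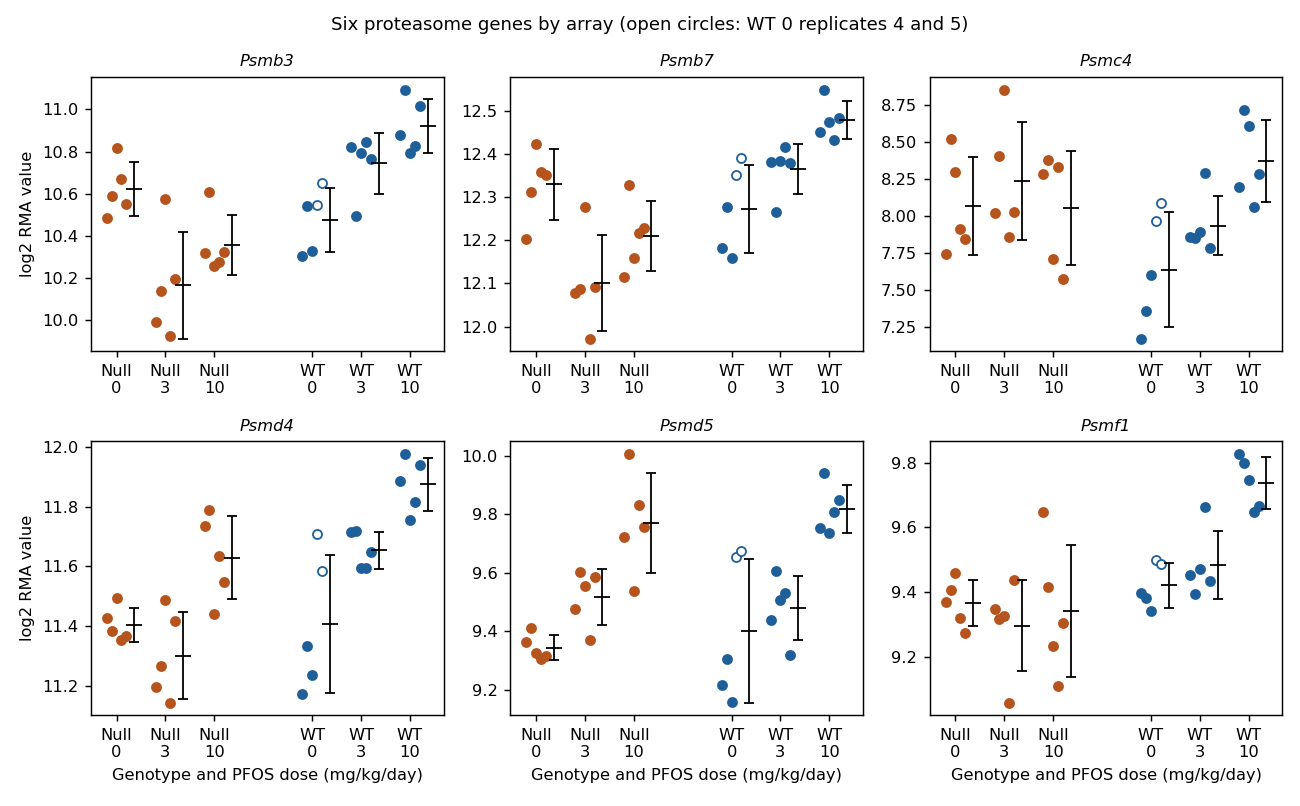
Log2 RMA values of 6 genes (y axes, each with its own scale) by genotype and dose (x axis). Points are arrays, open circles are WT 0 mg/kg replicates 4 and 5, and bars are the group mean ± SD (n = 5). Psmb3 at 10 mg/kg lay between 10.26 and 10.61 in Null mice and between 10.79 and 11.09 in WT mice, while Psmd5 overlapped between the genotypes at that dose.

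The genotypes were also set side by side at each dose. At 3 and 10 mg/kg the WT 0 mg/kg arrays do not enter the difference, but they enter the estimate of the spread and the choice of probe sets. At 10 mg/kg, 12 of 40 members were called lower in Null than in WT liver and 0 higher, where 7.73% of all genes were called lower. These were 9 of 14 core genes (Psma2, Psma5, Psma6, Psma7, Psmb2, Psmb3, Psmb5, Psmb6 and Psmb7), 0 of 6 base ATPases, Psmd8, Psmd13 and Psmf1. Psmd13 was read with its dim probe set. The largest difference was that of Psmb3 (-0.57 ± 0.10, adjusted p = 0.00040). For 10 of the 40, every Null array lay below every WT array, as did 5.43% of all genes. The class medians were -0.27 for the core, -0.03 for the base ATPases and -0.06 for the other 19S genes. The count of 12 was 6 without Null 10 mg/kg replicate 3 or without WT 10 mg/kg replicate 2. Of all genes, 9.17% and 10.7% were then called in either direction, against 14.1% with every array. Without the 2 unusual arrays the count was 14, against 8.46% of all genes, and the core genes called were the same 9.

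At 3 mg/kg, 9 members were called lower in Null than in WT liver and 0 higher, where 4.96% of all genes were called lower. They were 7 core genes (Psma2, Psma5, Psmb2, Psmb3, Psmb5, Psmb6 and Psmb7), Psmd4 (-0.35 ± 0.09, adjusted p = 0.00999) and Psmd13, again with its dim probe set. All 7 core genes were also called at 10 mg/kg. For Psmd4 and Psmd13 every Null array lay below every WT array, as did 4.17% of all genes. The count was 14 without Null 3 mg/kg replicate 3, and 11 without the 2 unusual arrays, against 5.26% of all genes. Leaving out Null 3 mg/kg replicate 3, 9.49% of all genes were called in either direction, against 10.6% with every array. The actin 3′ to 5′ difference lay between 0.46 and 0.50 in the Null arrays at 3 mg/kg and between 0.33 and 0.44 in the WT arrays at 3 mg/kg, and its part in this comparison was not tested. At 0 mg/kg limma called 0 of 40 members, and 1.57% of all genes, with 4 members at an unadjusted p under 0.05 and a median of 0.09. The methods' t-test called 1 at its own limit and 0 after adjustment. Without Null 0 mg/kg replicate 1, Null 3 mg/kg replicate 3 or 4, WT 0 mg/kg replicate 5 or WT 3 mg/kg replicate 2, the count was 1. In those settings 1.5% to 1.96% of all genes were called in either direction. Without replicates 4 and 5 of WT 0 mg/kg, Psmb4 was called higher in Null mice (0.73 ± 0.16, adjusted p = 0.0109), where 1.02% of all genes were called higher. The members' median was then 0.18, and for 10 of 40 every Null array lay above every remaining WT array, as did 7.96% of all genes.

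Of the inducible subunits that replace constitutive ones in the immunoproteasome, Psmb8, Psmb9 and Psmb10 fell in Null mice at 10 mg/kg by 0.54 ± 0.10 (adjusted p = 0.00547), 0.38 ± 0.10 (adjusted p = 0.0256) and 0.28 ± 0.08 (adjusted p = 0.0438). In WT mice their differences were -0.59 ± 0.24 (adjusted p = 0.119), -0.12 ± 0.21 (adjusted p = 0.762) and -0.25 ± 0.18 (adjusted p = 0.392), with a wider spread. Their responses were not called different between the genotypes, and for Psmb8 the Null response minus the WT response was 0.05 with a 95% interval of -0.50 to 0.61. The activator Psme1 rose in WT mice by 0.40 ± 0.10 (adjusted p = 0.0193), or by 0.49 without the 2 unusual arrays, and Psmb8 was then at -0.74 (adjusted p = 0.0682). The 3 of 4 genes of this list called lower in Null mice stand beside 5.08% of all genes.

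Of 11 measured partner genes, 1 was called higher in WT mice at 10 mg/kg, Zfand2a, an adaptor induced by stress (0.38 ± 0.11, adjusted p = 0.0426), beside the 7.63% of all genes called higher, and it was higher in Null mice too (0.58 ± 0.15, adjusted p = 0.0252). Sem1, a small lid subunit, fell in Null mice by 0.34 ± 0.08 at 10 mg/kg (adjusted p = 0.0132) and by 0.35 ± 0.08 at 3 mg/kg (adjusted p = 0.02). Psmg4, a core assembly chaperone, fell in Null mice at 3 mg/kg by 0.40 ± 0.08 (adjusted p = 0.0112). Of 11 measured genes of ubiquitin handling and delivery, 3 were called higher in WT mice at 10 mg/kg (Ubqln2, Ubxn1 and Ufd1), and in Null mice Vcp was called higher and Ubxn1 lower, beside 4.15% and 5.08% of all genes. With the 2 unusual arrays left out, 5 of the partner genes and 6 of the ubiquitin genes were called higher in WT mice, against 13.8% of all genes.

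Of 11 measured regulators of proteasome genes, 1 was called higher in WT mice at 10 mg/kg, Nfe2l1 (0.51 ± 0.16, adjusted p = 0.0462), beside the 7.63% of all genes. Nfe2l1 was not called without the 2 unusual arrays (0.25 ± 0.12, adjusted p = 0.147). It was lower in Null than in WT liver at 10 mg/kg (-0.90 ± 0.14, adjusted p = 3.86e-05), at 3 mg/kg (-0.62 ± 0.14, adjusted p = 0.00456) and at 0 mg/kg (-0.57 ± 0.14, adjusted p = 0.0321, or -0.83 without the 2 unusual arrays). Its level averaged 8.63 at 0 mg/kg, 8.83 at 3 mg/kg and 8.82 at 10 mg/kg in Null mice, and 9.21, 9.44 and 9.72 at the same doses in WT mice. Its response to 10 mg/kg was not called different between the genotypes (-0.33 ± 0.19, adjusted p = 0.426, or -0.07 without the 2 unusual arrays). Keap1, a sensor of electrophilic stress, was called higher in Null mice at 10 mg/kg (0.36 ± 0.09, adjusted p = 0.0305). Of 19 measured cytosolic chaperones, 5 were called higher in WT mice at 10 mg/kg, led by Hspb1 (1.70 ± 0.20, adjusted p = 0.0001) and Hspa1b (1.27 ± 0.33, adjusted p = 0.0243), beside the 7.63% of all genes. The fit without the 2 unusual arrays called 6 higher, against 13.8% of all genes, with Hspb1 at 1.83 and Hspa1b at 1.68. In Null mice 0 of 19 were called, where 3 had an unadjusted p under 0.05 and 9.23% of all genes were called at 10 mg/kg. Hspa1b was 1.01 ± 0.44 higher there at 10 mg/kg (adjusted p = 0.184) and 1.10 ± 0.44 higher at 3 mg/kg (adjusted p = 0.191), and its responses at 10 mg/kg were not called different (-0.25 ± 0.59, adjusted p = 0.884), while those of Hspb1 were (-1.44 ± 0.29, adjusted p = 0.00692).

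Markers of cell types moved in the same comparison. In WT mice at 10 mg/kg, 5 of 11 measured hepatocyte markers were called lower (Hnf4a, Cps1, Ahsg, Tat and Pck1) and 0 higher, where 5.83% of all genes were called lower. Without the 2 unusual arrays 5 were again called lower, with Apoa1 in place of Tat, against 14.5% of all genes. The mean level over the list lay between 12.77 and 12.95 at 10 mg/kg and between 13.01 and 13.17 at 0 mg/kg in WT mice, and between 12.99 and 13.25 at 10 mg/kg and 13.05 and 13.18 at 0 mg/kg in Null mice. Of 13 Kupffer cell and macrophage markers, 0 were called in WT mice, where all 13 had a difference below 0 and 3 an unadjusted p under 0.05. In Null mice 3 of the 13 were called lower, beside the 5.08% of all genes called lower there at 10 mg/kg. The mean level of that list ran over 8.02 to 8.82 at 10 mg/kg and 8.29 to 9.53 at 0 mg/kg in WT mice. Without the 2 unusual arrays the WT 0 mg/kg range was 8.53 to 9.53, and 1 of these markers was called lower (Clec4f). Of 11 endothelial, 9 stellate, 3 cholangiocyte and 7 lymphocyte and neutrophil markers, the stellate marker Dcn was called in WT mice at 10 against 0 mg/kg, and it was lower. Without the 2 unusual arrays, 6 of 11 endothelial and 4 of 9 stellate markers were called lower and the neutrophil marker S100a8 higher. Of all genes, 14.5% were then called lower and 13.8% higher. In Null mice at 10 mg/kg, Pecam1 and Lyve1 were called higher, Dnase1l3 and Rgs5 lower, and S100a8 higher by 3.11 ± 0.83 (adjusted p = 0.0333). There 4.15% of all genes were called higher and 5.08% lower. S100a8 was also higher in WT mice at 10 than at 3 mg/kg, by 3.40 ± 0.95 (adjusted p = 0.0498), and Dcn was lower there. For S100a8 the 10 and 0 mg/kg arrays overlapped in Null mice. S100a9, on the same list, was called in neither comparison. Its difference was -0.09 in Null mice at 10 against 0 mg/kg, and 0.19 in WT mice at 10 against 3 mg/kg. The part of these shifts in the proteasome results was not tested. The PPARα markers, as a check of the treatment, were called higher at 10 mg/kg for 1 of 9 measured genes in Null mice and 9 of 9 in WT mice. Of all genes, 4.15% were called higher in Null mice and 7.63% in WT mice.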

How the data were processed

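Liver RNA of 30 mice was hybridised to Affymetrix whole-genome mouse arrays, 1 array per animal. The deposited values were log2 expression values that the authors made with RMA (background correction, quantile normalisation and median polish). The p-values set a difference between groups against the spread between animals. Array intensity gives no count depth, so the number of arrays limits the precision.

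The members and the gene lists were chosen with earlier results of these data known. Of 45101 probe sets, 64 controls were left out, and 24069 were kept, each above 5.65 (the table's median) on 5 or more of the 30 arrays. The platform annotation gave 1 gene for 34958 probe sets, several for 932 and none for 9211; only the first were named, which gave 12156 genes. Where a gene had several, the one whose p was lowest in any contrast with 0 mg/kg (either genotype) stood for it, which raises its differences. Of 90 member probe sets 72 were kept, and 20 members had several.

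Tests were run in limma 3.58.1 (R 4.3.3) on the log2 scale, over the 15 arrays of a genotype for dose contrasts and within-genotype responses, and over all 30 arrays for genotype contrasts, with Benjamini-Hochberg adjustment over all kept probe sets and a threshold of 0.05. The difference between the responses set the 2 dose contrasts against each other within 1 model. The methods' t-test used an unadjusted limit of 0.0025. The procedure was tested on simulated data for WT 10 against 0 mg/kg, with 12156 genes, of which 50 were changed at each fold. There it called 10 of 50 changed 1.25-fold and 40 of 50 changed 1.5-fold. In the deposited data 13.5% of all genes were called in that comparison, with adjustment over 24069 probe sets. How many changes of a given size are called under those conditions was not tested.

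Of 41 listed members, 40 had a named probe set. Full values by array are given, in each class, for the 2 members with the smallest p in WT 10 against 0 mg/kg, the member with the largest p there, and members whose responses stood apart between the genotypes. Promoter windows came from RefSeq (GRCm38.p6). Alternatives were other filters, normalisations, weights, probe set choices, fits and tests, a replicate block, and leaving out each array or the 2 unusual WT arrays.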

Additional observations from a re-analysis of the deposited data

Results flagged for a closer look

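In 108 groups of 5 arrays, 7 had an array whose gap to its nearest neighbour, as a share of the group's range, was above 0.71; chance alone gives this in about 1 in 20 groups. For Psma3 the share was 0.817 in Null mice at 0 mg/kg, where replicate 1 read 11.35 and the others 11.65 to 11.72. For Psmb3 it was 0.81 in Null mice at 10 mg/kg, where replicate 2 read 10.61 and the others 10.26 to 10.32, and 0.773 in WT mice at 3 mg/kg, where replicate 2 read 10.49 and the others 10.77 to 10.85. For Psmb7 it was 0.756 in WT mice at 3 mg/kg, where the same replicate 2 read 12.27 and the others 12.38 to 12.42. For Psmc4 it was 0.794 in WT mice at 3 mg/kg, where replicate 4 read 8.29 and the others 7.79 to 7.89. In Null mice at 10 mg/kg, replicate 1 stood low for both Psmc6 (share 0.737, 9.95 against 10.78 to 11.08) and Psme4 (share 0.848, 9.43 against 10.40 to 10.57).

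The test of the difference between the genotypes' responses, Null minus WT, passed the threshold at 10 mg/kg for Psma2 (-0.40), Psmb3 (-0.71), Psmb4 (-0.81), Psmb7 (-0.33) and Psmd13 (-0.58), and at 3 mg/kg for Psmb3 (-0.73).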

How the results depend on the processing

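The counts in this section are of members only. On leaving out 1 array the share of all genes called moved too, so a changed count is not a result about the members alone. Without WT 0 mg/kg replicate 1, 6.53% of all genes were called in WT 10 against 0 mg/kg, against 13.5% with every array. For the 10 against 0 mg/kg count in WT mice (19), the alternatives gave 33 without the 2 unusual WT arrays and with probe sets chosen anew, 8 with only the groups compared in the fit, and 7 to 26 on leaving out 1 array. For WT 3 against 0 mg/kg (0) the count was 6 without the 2 unusual arrays and 0 on leaving out any 1 array. For WT 10 against 3 mg/kg (2) it was 4 in 1 fit of 30 arrays, 9 with array weights, 1 with a median shift, 6 with the groups alone, 0 with no filter, 1 with repeated quantile normalisation, 1 with the methods' t-test after adjustment, 1 at its own limit, 12 without the 2 unusual arrays, and 0 to 5 on leaving out 1 array.

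For Null 10 against 0 mg/kg (4) the count was 2 with the brightest probe sets and 3 to 6 on leaving out 1 array. For Null 3 against 0 mg/kg (3) it was 6 in 1 fit of 30, 8 with array weights, 7 with a median shift, 1 with no filter, 1 with the brightest probe sets, 6 with repeated quantile normalisation, 6 at the methods' limit, and 1 to 6 on leaving out 1 array. For Null 10 against 3 mg/kg (0) it was 1 at the methods' limit and 0 on leaving out any 1 array.

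For the difference in response at 10 mg/kg (5) the count was 10 with array weights, 2 with the groups alone, 1 with no filter, 3 with the brightest probe sets, 11 without the 2 unusual arrays, and 1 to 7 on leaving out 1 array. At 3 mg/kg (1) it was 8 with array weights, 5 with a median shift and 3 with a robust trend. It was 0 with only probe sets not marked as reading several transcripts, and 0 with the brightest. With repeated quantile normalisation it was 4, with the adjusted t-test 3, and at the methods' limit 7. Without the 2 unusual arrays it was 2, and on leaving out 1 array 0 to 7. For Null against WT the count at 0 mg/kg (0) was 2 with array weights, 1 at the methods' limit, 1 without the 2 unusual arrays, and 0 to 1 on leaving out 1 array. At 3 mg/kg (9) it was 15 with array weights, 15 with repeated quantile normalisation, and 6 to 14 on leaving out 1 array. At 10 mg/kg (12) it was 7 with the groups alone and 6 to 15 on leaving out 1 array.

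With the replicate number as a block, the count was 17 for WT 10 against 0 mg/kg, 0 for WT 10 against 3 mg/kg and 2 for the difference at 3 mg/kg. The numbers do not pair the arrays: 24 of 75 same-numbered pairs correlated over 0.1, and 8 of 30 arrays matched their own number best. Of 1958 values of called differences under the alternatives, 1688 kept their direction and side of the threshold, 269 lost their call, and 1 changed direction: Psmd13 in Null mice at 10 mg/kg, 0.18 with its brightest probe set. Differences that were not called are outside this count, and some of them changed sign, such as those of Psmb4, Psmc2 and Psmc4 in Null mice and Psmc6 in WT mice at 10 mg/kg. With no filter a dim Psmd9 probe set (mean 4.58) was called lower in WT mice at 10 mg/kg (-0.70, adjusted p = 0.0011). Where no cause is named, the cause was not tested.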
